A study of Mus musculus with 6 samples.

Results

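The endothelin system of the hypoxic mouse lung is described here through 6 genes, which encode the ligands Edn1 and Edn3, the converting enzymes Ece1 and Ece2, and the receptors Ednra and Ednrb. They were chosen by name, as the features whose gene number belongs to these symbols, and made up 6 of the 25428 features on the arrays. Ednra was named through the RefSeq table of assembly GRCm38.p6. RNA came from lungs of Nfat5(EC)-/- mice, in which the transcription factor Nfat5 is deleted in endothelial cells, and of Nfat5fl/fl mice, which carry floxed Nfat5 alleles. Each genotype was represented by 3 mice, numbered 1, 3 and 4, with 1 lung lobe and 1 array per mouse. Both genotypes had breathed 10% oxygen for 7 days, so that the values give a genotype difference under hypoxia and no response to hypoxia. The sources used here do not give the Cre driver, strain, sex or age of the mice. A difference is the log2 value in Nfat5(EC)-/- lungs minus that in Nfat5fl/fl lungs, with its standard error (SE) and adjusted p-values from limma, fitted to all features with Benjamini-Hochberg adjustment and a threshold of 0.05. The mice are separate animals, and their small number limits the precision of each value.

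Endothelins are short peptides that act on vascular tone. Their precursors are first cut by furin-like convertases to big endothelins and then by endothelin converting enzymes to the active peptides. The type A receptor, encoded by Ednra, lies mainly on vascular smooth muscle, where it drives contraction through Gq proteins and calcium. The type B receptor, encoded by Ednrb, lies on endothelial cells, where it releases nitric oxide and prostacyclin and clears circulating endothelin, much of it in the lung, and also on some smooth muscle. Endothelin 1 binds both receptors, whereas endothelin 3 prefers the type B receptor. Drugs that block these receptors are used in pulmonary arterial hypertension.

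In Nfat5(EC)-/- lungs both receptor transcripts were lower and the Edn3 transcript was higher, while Edn1 and both converting enzymes did not pass the test. Of the 6 genes, 1 was called higher and 2 were called lower, and 3 did not pass. Among all 25428 features the test called 25.6%, with 12.5% higher and 13.1% lower. That share includes dim features. In a fit to the 12714 features with a mean level at or above the median of all features, 5981 passed. In 4 of the 6 genes the values of the genotypes did not overlap, which was also the case for 42.0% of all features. The median difference of the 6 genes was -0.46, against 0.04 for all features.

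The promoters of the 3 genes that passed the test are printed beside that of Edn1, whose gene is known to be induced by hypoxia. They were taken from the RefSeq promoter table of GRCm38.p6, which held all 6 genes with 9 promoters in total, each running from 250 bases before to 50 bases after an annotated start. Each sequence is given 5′ to 3′ on the strand of its gene, and capitals mark matches on either strand to 4 motifs. The core of NFAT5 sites was searched as TGGAAA, with no other base allowed. The core of sites for the hypoxia-inducible factors (HIF) was searched as ACGTG. The AP-1 motif was searched as TGACTNA, in which N is any base. The motif of GATA factors was searched as AGATAA, and overlapping matches were counted. The Edn1 promoter lies at chr13:42301226-42301525 on the plus strand and that of Edn3 at chr2:174760369-174760668 on the plus strand. The Ednra promoter lies at chr8:77724403-77724702 on the minus strand and that of Ednrb at chr14:103843652-103843951 on the minus strand, where the start used for Ednrb lies inside the annotated span of the gene.
Edn1: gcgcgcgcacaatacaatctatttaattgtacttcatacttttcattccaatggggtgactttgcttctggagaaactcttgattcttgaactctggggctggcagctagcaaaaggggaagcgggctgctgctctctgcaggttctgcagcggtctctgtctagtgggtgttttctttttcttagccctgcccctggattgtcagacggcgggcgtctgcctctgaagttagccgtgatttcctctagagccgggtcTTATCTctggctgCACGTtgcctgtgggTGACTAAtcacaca
Edn3: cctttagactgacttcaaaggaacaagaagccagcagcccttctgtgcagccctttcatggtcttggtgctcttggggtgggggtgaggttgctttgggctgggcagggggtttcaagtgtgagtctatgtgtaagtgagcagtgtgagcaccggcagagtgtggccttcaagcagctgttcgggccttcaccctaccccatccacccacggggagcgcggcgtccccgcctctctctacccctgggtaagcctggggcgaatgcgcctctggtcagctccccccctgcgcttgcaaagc
Ednra: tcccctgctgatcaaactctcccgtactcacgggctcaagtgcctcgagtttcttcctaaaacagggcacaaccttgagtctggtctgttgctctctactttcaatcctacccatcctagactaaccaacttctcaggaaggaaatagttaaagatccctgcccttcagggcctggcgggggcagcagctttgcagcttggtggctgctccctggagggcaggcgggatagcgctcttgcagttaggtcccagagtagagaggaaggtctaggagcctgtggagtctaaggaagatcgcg
Ednrb: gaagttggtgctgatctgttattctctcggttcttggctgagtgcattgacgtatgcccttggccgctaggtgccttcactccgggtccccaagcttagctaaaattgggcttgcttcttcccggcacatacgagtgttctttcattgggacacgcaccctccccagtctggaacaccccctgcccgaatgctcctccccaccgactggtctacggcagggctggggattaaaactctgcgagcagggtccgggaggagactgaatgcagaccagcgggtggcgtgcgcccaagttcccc

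All 3 matches in the Edn1 window lay just after the annotated start. They were a GATA motif at position 9 and a HIF core at position 22, both on the opposite strand, and an AP-1 motif at position 37. Position 1 is the first base of the annotated transcript. Whether Edn1 transcripts of the lung begin at this start was not tested, and a different start would shift these positions. The printed windows of Edn3, Ednra and Ednrb held no match to any of the 4 motifs. Ece2 held the only NFAT5 core among the promoters of the 6 genes, at position -212, and a HIF core at position -92. Of the 4 promoters of Ece1, 1 held a HIF core on both strands at positions -90 and -89, as part of a palindrome. Among all 32851 promoters in the table the NFAT5 core was found in 21.4%, the HIF core in 19.6%, AP-1 in 13.9% and GATA in 11.2%. A match is a stretch of letters and no evidence of binding, and windows without a match leave the rest of the gene unexamined.

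Edn1 encodes endothelin 1, the main vasoconstrictor of the family, made largely by endothelial cells. Its level was 5.41 in mouse 1, 6.02 in mouse 3 and 4.70 in mouse 4 among Nfat5(EC)-/- lungs, against 5.54 in mouse 1, 6.88 in mouse 3 and 5.12 in mouse 4 among Nfat5fl/fl lungs, and values below follow this order of mice. The values of the genotypes overlapped, and mouse 3 was the highest and mouse 4 the lowest in both. Edn1 averaged 5.38 ± 0.66 in Nfat5(EC)-/- lungs and 5.84 ± 0.92 in Nfat5fl/fl lungs (SD, n = 3 each). The difference of -0.47 (SE 0.47, limma adjusted p = 0.520) had a 95% interval of -1.53 to 0.59, which leaves room for a lower as well as a higher level in Nfat5(EC)-/- lungs. Without Nfat5fl/fl mouse 3, the highest of the 6 lungs, it was 0.05 (adjusted p = 0.956). Edn1 (chr13:42301476-42307990 of GRCm38.p6) had the widest spread among mice of the 6 genes in both genotypes.

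Edn3 encodes endothelin 3, which together with the type B receptor is needed for the neural crest cells that form enteric neurons and melanocytes. Its level was 5.02, 4.51 and 4.49 in Nfat5(EC)-/- lungs, against 2.86, 3.66 and 3.77 in Nfat5fl/fl lungs. Every Nfat5(EC)-/- lung lay above every Nfat5fl/fl lung, with the narrowest gap between mouse 4 of both genotypes. Edn3 averaged 4.67 ± 0.30 in Nfat5(EC)-/- lungs and 3.43 ± 0.49 in Nfat5fl/fl lungs (SD, n = 3 each), a 2.37-fold higher level (log2 fold change 1.24, SE 0.28, limma adjusted p = 0.0129). The 95% interval ran from 0.61 to 1.88. With any 1 of the 6 lungs left out the difference stayed between 0.96 and 1.41, and the highest adjusted p was 0.0472, without Nfat5fl/fl mouse 1. The Nfat5fl/fl values lay close to the array median of 2.98, where RMA values are compressed and the arrays give no detection call. Edn3 spans 23424 bases (chr2:174760619-174784042 of GRCm38.p6).

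Ece1 encodes the main endothelin converting enzyme of the vessel wall, a membrane metalloprotease. Its level was 7.02, 7.19 and 6.79 in Nfat5(EC)-/- lungs, against 7.24, 7.44 and 7.68 in Nfat5fl/fl lungs. The groups did not overlap, but the highest Nfat5(EC)-/- lung, mouse 3, and the lowest Nfat5fl/fl lung, mouse 1, nearly met. Ece1 averaged 7.00 ± 0.20 in Nfat5(EC)-/- lungs and 7.45 ± 0.22 in Nfat5fl/fl lungs (SD, n = 3 each). The difference was -0.46 (SE 0.21, 95% interval -0.92 to 0.01, limma adjusted p = 0.144) and did not pass. Ece1 spans 102993 bases (chr4:137862237-137965229 of GRCm38.p6), and when the trend of the arrays with gene span was removed its difference was -0.07 (adjusted p = 0.838).

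Ece2 encodes a related enzyme with an acidic optimum that is known mainly from neural and endocrine tissue. Its level was 2.76, 2.29 and 3.00 in Nfat5(EC)-/- lungs, against 2.70, 2.70 and 2.64 in Nfat5fl/fl lungs. The Nfat5(EC)-/- values lay on both sides of the Nfat5fl/fl values. Ece2 averaged 2.68 ± 0.36 in Nfat5(EC)-/- lungs and 2.68 ± 0.03 in Nfat5fl/fl lungs (SD, n = 3 each), a difference of 0.0049 (SE 0.22, 95% interval -0.50 to 0.51, limma adjusted p = 0.991). Both means were below the array median of 2.98, so that a change at this level may not be measurable. Ece2 was the only 1 of the 6 genes with its mean over all arrays below that median (chr16:20629851-20645915 of GRCm38.p6).

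Ednra, the type A receptor gene, was the most decreased of the 6. Its level was 6.89, 6.86 and 6.0 in Nfat5(EC)-/- lungs, against 8.02, 8.0 and 7.97 in Nfat5fl/fl lungs. The groups did not overlap, the Nfat5fl/fl lungs were almost identical, and Nfat5(EC)-/- mouse 4 was the lowest. Ednra averaged 6.58 ± 0.51 in Nfat5(EC)-/- lungs and 8.0 ± 0.03 in Nfat5fl/fl lungs (SD, n = 3 each), a 2.66-fold lower level (log2 fold change -1.41, SE 0.26, limma adjusted p = 0.00595). The 95% interval ran from -2.0 to -0.82. With any 1 lung left out the difference lay between -1.57 and -1.12 and its adjusted p did not exceed 0.0325, and it was -1.12 (adjusted p = 0.00738) without Nfat5(EC)-/- mouse 4. Ednra spans 61424 bases (chr8:77663029-77724452 of GRCm38.p6).

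Ednrb, the type B receptor gene, was lower as well. Its level was 5.24, 5.18 and 4.23 in Nfat5(EC)-/- lungs, against 6.17, 5.84 and 5.92 in Nfat5fl/fl lungs. The groups did not overlap, and mouse 4 was again the lowest of the Nfat5(EC)-/- lungs. Ednrb averaged 4.89 ± 0.57 in Nfat5(EC)-/- lungs and 5.98 ± 0.17 in Nfat5fl/fl lungs (SD, n = 3 each), a 2.13-fold lower level (log2 fold change -1.09, SE 0.29, limma adjusted p = 0.0231). The 95% interval ran from -1.74 to -0.44. The call was lost without Nfat5fl/fl mouse 1 (-0.99, adjusted p = 0.0946), without Nfat5fl/fl mouse 3 (-1.16, adjusted p = 0.0662) and without Nfat5fl/fl mouse 4 (-1.12, adjusted p = 0.0612), and it was kept without any 1 of the Nfat5(EC)-/- mice. The gene spans 29894 bases (chr14:103814615-103844508 of GRCm38.p6).

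**Figure D1:**
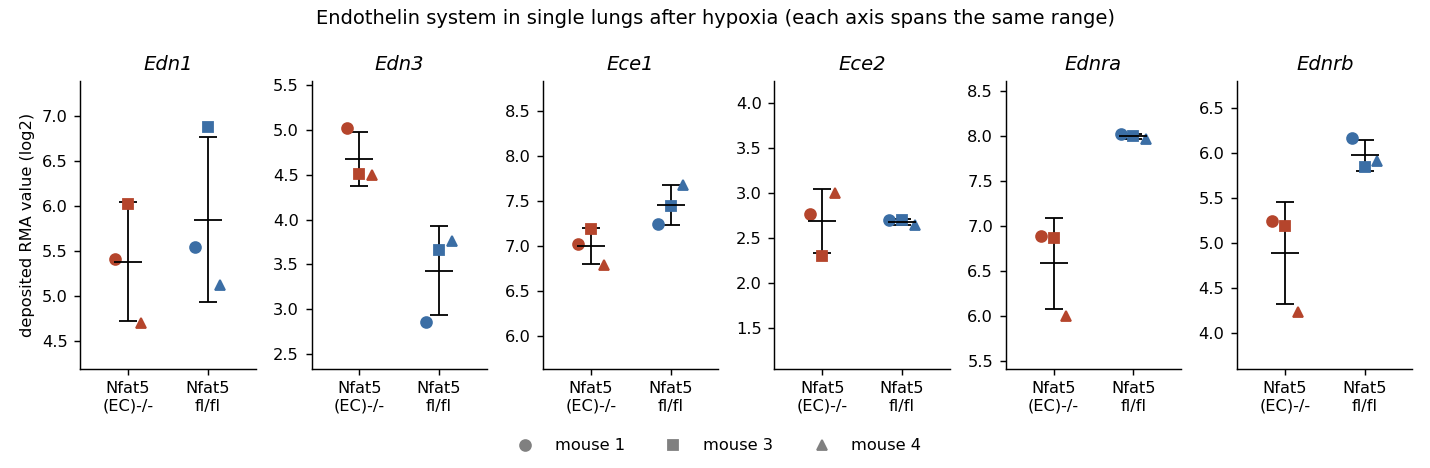
Deposited log2 value of the 6 endothelin genes in each lung, Nfat5(EC)-/- on the left and Nfat5fl/fl on the right of each panel. Points are single mice with a shape for each mouse number, and bars are mean ± SD of 3 lungs. Ednra and Ednrb lie lower and Edn3 lies higher in all Nfat5(EC)-/- lungs, whereas the Edn1 and Ece2 values overlap.

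The remaining ligand gene of the family, Edn2, encodes endothelin 2 and was not among the 6 chosen genes. Its level was 3.70, 2.94 and 2.91 in Nfat5(EC)-/- lungs, against 3.35, 2.54 and 3.09 in Nfat5fl/fl lungs, with overlap between the genotypes. The difference was 0.19 (SE 0.29, 95% interval -0.47 to 0.85, limma adjusted p = 0.689). The targeted gene itself, Nfat5, was at 4.46, 4.48 and 3.89 in Nfat5(EC)-/- lungs, against 6.65, 6.58 and 6.30 in Nfat5fl/fl lungs, a 4.69-fold lower level (log2 fold change -2.23, SE 0.23, adjusted p = 0.00151).

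**Figure D2:**
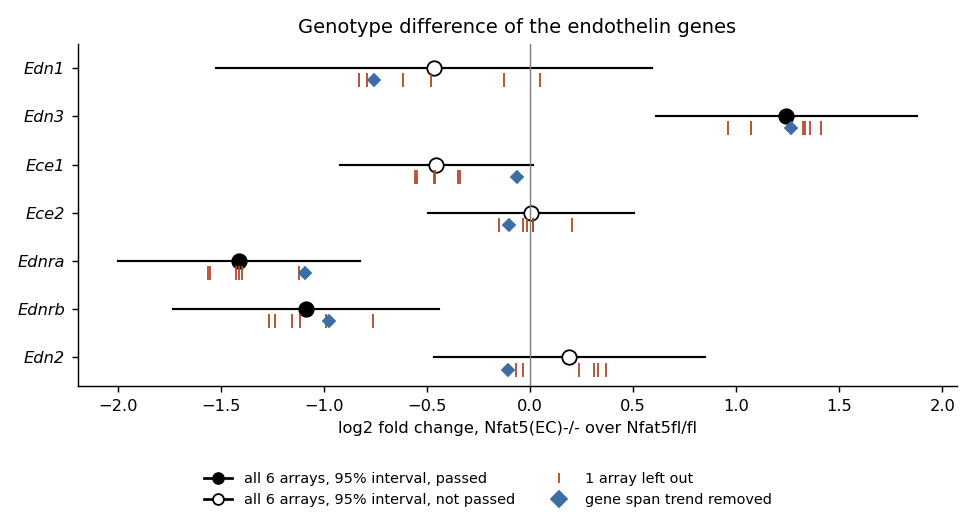
Log2 fold change of the 6 endothelin genes and Edn2, Nfat5(EC)-/- over Nfat5fl/fl, with 95% intervals from limma over all 6 arrays and filled circles where the adjusted p was under 0.05. Ticks give the difference with 1 array left out and diamonds the difference after the trend with gene span was removed. The Ednra, Ednrb and Edn3 differences keep their sign in all settings plotted, and the Ece1 difference shrinks to -0.07 after the span trend is removed.

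Genes of the same role were set against each other within each array, where any effect common to both cancels. The offset between 2 features has no meaning on such arrays, so that only its change between genotypes is read. Ednra minus Ednrb was 1.65, 1.68 and 1.77 in Nfat5(EC)-/- lungs, against 1.85, 2.16 and 2.05 in Nfat5fl/fl lungs. Its SD was 0.06 in Nfat5(EC)-/- lungs, where both receptors were low in mouse 4, and 0.16 in Nfat5fl/fl lungs, where Ednra alone had an SD of 0.03. It changed by -0.32 between the genotypes (2-sided exact permutation p = 0.1, the smallest that 20 splits of 3 against 3 allow, and 0.3 after adjustment over 3 pairs). Edn1 minus Edn3 was 0.39, 1.51 and 0.21 in Nfat5(EC)-/- lungs, against 2.68, 3.21 and 1.35 in Nfat5fl/fl lungs, a change of -1.71 (exact permutation p = 0.2, adjusted 0.3). Ece1 minus Ece2 changed by -0.46 (exact permutation p = 0.3, adjusted 0.3). This test cannot pass a threshold of 0.05 with 3 lungs against 3, so that it does not settle whether the genes of a pair changed unequally.

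Small nucleolar RNAs, which guide modification of ribosomal RNA, separated the genotypes on these arrays, so that their median was also tried as a covariate. The median of 107 of them was 7.40, 6.43 and 6.40 in Nfat5(EC)-/- lungs, against 4.00, 4.20 and 4.13 in Nfat5fl/fl lungs. Mouse 1 had the highest median among Nfat5(EC)-/- lungs and the lowest among Nfat5fl/fl lungs, as it did for Edn3. With this median as a covariate the Edn3 difference was -0.44 (SE 1.00, adjusted p = 0.881), in a fit in which covariate and genotype nearly coincide and 0 features passed the limma test (3664 at an unadjusted p under 0.05). In that fit Ednra was -2.65 (SE 0.98, adjusted p = 0.281) and Ednrb -2.40 (SE 1.09, adjusted p = 0.361), lower than without the covariate but with wide errors. Such a fit cannot tell genotype and covariate apart, and a link of small nucleolar RNAs to Edn3 or the receptors was not tested. Without limma's variance moderation adjusted p was 0.0672 for Ednra, 0.129 for Ednrb and 0.0996 for Edn3, so that none of the 3 passed.

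Gene span, the distance from start to end of a gene with its introns, moved with the genotype difference across these arrays. Among 20232 protein-coding genes divided into 10 bins by span, the median level of the bin with the longest spans was 3.34, 3.46 and 3.27 in Nfat5(EC)-/- lungs, against 3.90, 3.92 and 3.82 in Nfat5fl/fl lungs. Ednra and Ece1 fall in bin 9, counted from the shortest, of 60873 to 113615 bases, in which 32.3% of genes were lower and 6.48% higher with a median difference of -0.36. Ednrb falls in bin 7, of 26394 to 38582 bases, in which 22.3% were lower and 12.1% higher with a median of -0.10. Edn3 falls in bin 6, of 18600 to 26390 bases, in which 14.7% were lower and 13.7% higher with a median of 0.02. Edn1, with a span of 6515 bases, falls in bin 3, in which 21.4% were higher and 4.35% lower with a median of 0.25. After removal of the trend with span from each array the differences were -1.10 for Ednra (adjusted p = 0.0121), -0.98 for Ednrb (adjusted p = 0.0323) and 1.26 for Edn3 (adjusted p = 0.0121), so that these 3 genes still passed. Edn1 was then at -0.76 (SE 0.48, adjusted p = 0.267), lower than the -0.47 of the main fit, and did not pass.

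**Figure D3:**
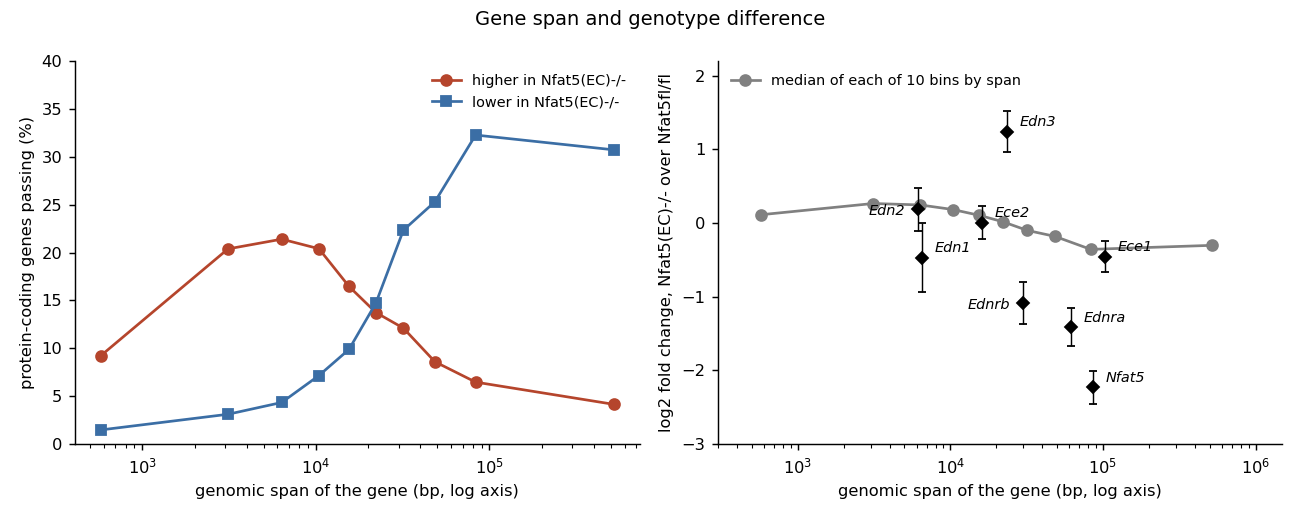
Genomic gene span on a log axis, with protein-coding genes in 10 bins. On the left is the percentage of genes called higher or lower in Nfat5(EC)-/- lungs, and on the right are the median log2 fold change of each bin and the values of the endothelin genes and Nfat5 with their SE. Ednra and Ednrb lie below and Edn3 lies above the medians of genes of their span, and Ece1 lies near it.

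The features whose values moved most like each gene were found by the root mean square difference of values centred on the mean of the 6 arrays, among 11675 features at or above the array median. Stx17 (0.06), Mapk6 (0.07) and Mycbp2 (0.07) were nearest to Ednra, whose own deviation was 0.76 on the same log2 scale. Mettl7a1 (0.05), Pdcd6ip (0.06) and Cd44 (0.07) were nearest to Ednrb, with an own deviation of 0.64. These 6 features were lower in Nfat5(EC)-/- lungs by differences of -1.53 to -1.08. For Edn3 they were Tmem189 (0.10), the small nucleolar RNA Snord33 (0.10) and Nacc2 (0.12), against an own deviation of 0.70. All 3 were higher, by 1.04 to 1.31. For Edn1 they were H2ac6 (0.23), Dusp6 (0.29) and Gpbp1l1 (0.34), against 0.69. The nearest features were thus less close to Edn1 than to the receptors. For Ece1 they were Pdlim1, Plekhb1 and Ddx47 (0.06 to 0.07, against 0.29), and for Ece2 Tnfaip8, Kmt2d and Zfp511 (0.06 to 0.08, against 0.21). The measure includes the genotype difference, since 3 of the 6 arrays are of each genotype. Leaving out Nfat5fl/fl mouse 1 ended the calls of Tmem189 (difference 1.00, adjusted p = 0.0523), Nacc2 (0.79, adjusted p = 0.106), Mettl7a1 (-1.10, adjusted p = 0.0674), Pdcd6ip (-0.94, adjusted p = 0.116) and Cd44 (-1.02, adjusted p = 0.121). Leaving out Nfat5fl/fl mouse 3 did so for Nacc2 (1.12, adjusted p = 0.0731), Mettl7a1 (-1.22, adjusted p = 0.0543), Pdcd6ip (-1.13, adjusted p = 0.0817) and Cd44 (-1.15, adjusted p = 0.0929). Without Nfat5fl/fl mouse 4 it did so for Pdcd6ip (-1.17, adjusted p = 0.0609) and Cd44 (-1.13, adjusted p = 0.0814), and without Nfat5(EC)-/- mouse 1 for Nacc2 (0.82, adjusted p = 0.0622). With the span trend removed the calls of Pdcd6ip (-0.78, adjusted p = 0.0701) and Cd44 (-0.72, adjusted p = 0.0992) were lost.

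The 6 genes were next read beside the machinery around them, 87 genes in 10 lists, Edn2 included, that run from the processing of the precursor to the signal inside the cell. Of these, 12 were called higher and 23 lower and 52 did not pass, with a median difference of -0.23. That is 40.2% called, against 25.6% among all features, in lists put together with earlier results known. Most of the 87 genes lay at or above the array median, so that 25.6% is a low background for them, here and in the lists below. In the fit without dim features 5981 of 12714 features passed, with 12 pathway genes higher and 26 lower. With the span trend removed 14 were higher and 17 lower. Without Nfat5fl/fl mouse 1 there were 6 higher and 15 lower, and the same numbers were found without Nfat5fl/fl mouse 3.

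Upstream of Ece1, Furin, the convertase that releases big endothelin, was at 7.17, 6.80 and 7.19 in Nfat5(EC)-/- lungs, against 5.48, 5.43 and 5.89 in Nfat5fl/fl lungs. All Nfat5(EC)-/- lungs lay above (log2 fold change 1.45, SE 0.22, adjusted p = 0.00294). Among 4 proprotein convertases 1 was higher, Furin, and 1 lower, Pcsk5 (-0.65, adjusted p = 0.0312), which lost its call without Nfat5fl/fl mouse 1 (-0.70, adjusted p = 0.0760), 3 (-0.65, adjusted p = 0.103) or 4 (-0.59, adjusted p = 0.101) and without Nfat5(EC)-/- mouse 4 (-0.59, adjusted p = 0.0643), and with the span trend removed (-0.34, adjusted p = 0.200). Of 8 other peptidases, 1 was lower. It was Mme, which encodes neprilysin, a membrane peptidase that degrades endothelin, at 5.98, 6.49 and 6.14 in Nfat5(EC)-/- lungs, against 7.88, 7.84 and 7.69 in Nfat5fl/fl lungs (log2 fold change -1.60, SE 0.20, adjusted p = 0.00223). The chymases Cma1 and Mcpt4, mast cell proteases that can also cut big endothelin, were among 5 of the 8 below the array median.

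Downstream of the receptors, the phospholipases C beta, which turn the Gq signal into calcium release, and their G proteins moved in both directions. Of 11 such genes 3 were higher and 4 lower, with a median of -0.71. Plcb1 (-1.73, SE 0.25, adjusted p = 0.00284) and Plcb4 (-1.71, SE 0.23, adjusted p = 0.00243) were lower, whereas Gna11, a Gq family alpha subunit, was higher (1.22, SE 0.21, adjusted p = 0.00447). The other calls were Gnai2 and Plcb3, higher, and Gnaq and Gna13, lower. Of 14 genes of calcium release, calcium entry and protein kinase C, 1 was higher, the store-operated channel Orai1 (0.98, SE 0.19, adjusted p = 0.00727). In that list 2 were lower, so that the 3 calls were a smaller share than the 25.6% among all features. The lower genes were Prkca, a protein kinase C (-1.30, SE 0.24, adjusted p = 0.00602), and Trpc6, a cation channel gated by diacylglycerol (-0.78, SE 0.21, adjusted p = 0.0269). With the span trend removed Trpc6 was at -0.38 (adjusted p = 0.205). It also lost its call without Nfat5fl/fl mouse 1 (-0.80, adjusted p = 0.0801), Nfat5fl/fl mouse 3 (-0.65, adjusted p = 0.119) or Nfat5(EC)-/- mouse 1 (-0.65, adjusted p = 0.0580).

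Of 10 transcripts of proteins that end receptor signals 3 passed, a share near the 25.6% among all features. All 10 lay at or above the array median, and the share was smaller than the 5981 of 12714 in the fit without dim features. Rgs4 (-1.18, SE 0.20, adjusted p = 0.00409) and Rgs2 (-0.84, SE 0.24, adjusted p = 0.0325), which speed the inactivation of G proteins, were lower. Grk2, a kinase that desensitises active receptors, was higher (0.83, SE 0.20, adjusted p = 0.0152). Rgs2 lost its call without Nfat5fl/fl mouse 1 (-0.84, adjusted p = 0.102), Nfat5fl/fl mouse 3 (-0.67, adjusted p = 0.135), Nfat5(EC)-/- mouse 1 (-0.77, adjusted p = 0.0666) or Nfat5(EC)-/- mouse 3 (-0.77, adjusted p = 0.0804). Grk2 lost its call without Nfat5fl/fl mouse 1 (0.81, adjusted p = 0.0617), 3 (0.88, adjusted p = 0.0515) or 4 (0.79, adjusted p = 0.0552).

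The arm of the kinases Rock1 and Rock2, which keeps smooth muscle contracted by holding back myosin phosphatase, had 2 genes higher and 5 lower of 11, with a median of -0.28. Rock1 (-1.76, SE 0.29, adjusted p = 0.00406) and Rock2 (-1.72, SE 0.22, adjusted p = 0.00227) were lower, as were Arhgef12 and the phosphatase subunits Ppp1r12a and Ppp1cb. Ppp1r14a, an inhibitor of that phosphatase, was higher (1.68, SE 0.22, adjusted p = 0.00235), as was Arhgef1. The nitric oxide arm, which the type B receptor engages in endothelium, had 5 genes lower and 1 higher of 7, with a median of -1.28. Gucy1b1, a subunit of the nitric oxide receptor guanylate cyclase (-1.51, SE 0.22, adjusted p = 0.00289), Prkg1, the kinase activated by cyclic GMP (-1.47, SE 0.23, adjusted p = 0.00331), and Cav1, the caveolar coat protein (-1.15, SE 0.22, adjusted p = 0.00651), were lower, with Gucy1a1 and Pde5a, and Akt1 was higher. Nos3, the endothelial nitric oxide synthase, was at 4.30, 4.57 and 4.62 in Nfat5(EC)-/- lungs, against 4.12, 4.20 and 4.34 in Nfat5fl/fl lungs and did not pass.

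**Figure D4:**
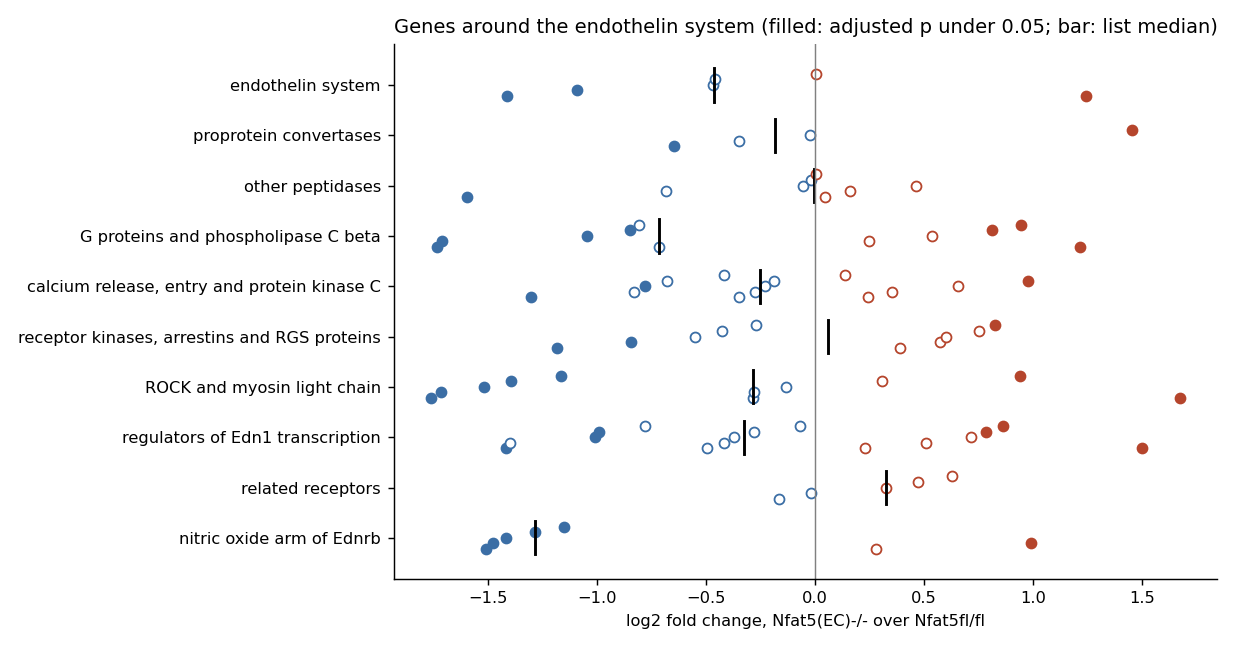
Log2 fold change, Nfat5(EC)-/- over Nfat5fl/fl, of the 6 endothelin genes and of genes around them, 1 row per list and 1 point per gene, with red for positive and blue for negative values. Filled points had a limma adjusted p under 0.05 and black bars are list medians. Edn2 is not drawn. Each row but that of the related receptors holds at least 1 gene that passed, and the nitric oxide arm has the lowest median, -1.28.

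Regulators of Edn1 transcription had 3 genes higher and 3 lower of 16, with a median of -0.32, while Edn1 itself did not pass. Klf2, a flow-induced factor that represses Edn1, was higher (1.5, SE 0.26, adjusted p = 0.00470), together with Gata4 and Rela. Hif1a (-1.42, SE 0.31, adjusted p = 0.0114) and Epas1 (-0.99, SE 0.21, adjusted p = 0.0111), the oxygen-regulated alpha subunits of HIF, were lower, together with their partner Arnt. The Hif1a call was lost without Nfat5fl/fl mouse 1 (-1.30, adjusted p = 0.0565) or Nfat5fl/fl mouse 3 (-1.40, adjusted p = 0.0511), and the Epas1 call without Nfat5fl/fl mouse 3 (-0.93, adjusted p = 0.0559) or with the span trend removed (-0.62, adjusted p = 0.0502). Of 5 receptors related in sequence, such as Gpr37 and Nmbr, 0 passed the limma test and all 5 lay below the array median.

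A lung lobe is a mixture of cells, in which fewer cells of a type and less RNA per cell cannot be told apart, so marker genes of the cells that carry endothelin receptors are given beside them, with log2 fold changes in parentheses and summed levels on the log2 scale. For Ednra these are smooth muscle, pericytes and fibroblasts. Over all features the test called 25.6%. In the fit without dim features, the closer background for most markers here and below, 5981 of 12714 passed. A count of called markers near these shares is no result about a cell type. Of 10 smooth muscle markers 1 was higher, Smtn, and 0 lower, with a median of 0.20 and a summed level of 9.26 to 9.52 in Nfat5(EC)-/- lungs, against 8.76 to 9.30 in Nfat5fl/fl lungs. Of 10 pericyte markers 5 were higher, among them Notch3 (1.69) and Lamc3 (1.46), and 2 lower, Abcc9 and Gucy1a1, with a median of 0.82, and their summed level was 9.04 to 9.37 in Nfat5(EC)-/- lungs, against 9.05 to 9.12 in Nfat5fl/fl lungs. Both ranges overlapped between the genotypes, and the part of these markers in the Ednra difference was not tested. Of 10 fibroblast markers 2 were higher, with Col1a1 (1.34), and 2 lower, Dcn (-1.36) and Mfap4, with a median of -0.70. Their summed level was lower, 11.39 to 11.47 in Nfat5(EC)-/- lungs, against 11.83 to 11.86 in Nfat5fl/fl lungs. Mfap4, the brightest of the 10, averaged 10.19 in Nfat5(EC)-/- and 10.98 in Nfat5fl/fl lungs and weighed most in this sum. The part of the fibroblast markers in the Ednra difference was not tested.

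For Ednrb the carriers are endothelial cells, above all the aerocytes of the alveolar capillaries. Of 10 aerocyte markers 3 were higher, Rprml (1.03), Car4 and Tbx2, and 1 lower, Emp2 (-0.97), with a median of 0.42. Their summed level was 9.91 to 10.33 in Nfat5(EC)-/- lungs, against 10.58 to 10.84 in Nfat5fl/fl lungs. Emp2 made the largest part of this sum, with means of 9.32 in Nfat5(EC)-/- and 10.28 in Nfat5fl/fl lungs. No other aerocyte marker averaged above the 7.60 of Kdr in Nfat5fl/fl lungs, so the lower sum largely repeats the Emp2 difference. Of 10 general capillary markers 1 was higher, Plvap (1.43), and 4 lower, with Glp1r (-1.75), with a median of -0.91, and their summed level was 9.31 to 9.87 in Nfat5(EC)-/- lungs, against 10.58 to 11.02 in Nfat5fl/fl lungs. Of 15 pan-endothelial markers 4 were higher, Eng, Cldn5, Egfl7 and Sox18, and 5 lower, Calcrl (-1.92), Cdh5 (-1.52), Pecam1, Erg and Emcn, with a median of 0.40, and their summed level was 11.29 to 11.41 in Nfat5(EC)-/- lungs, against 12.02 to 12.25 in Nfat5fl/fl lungs. All 3 summed levels, in which the brightest markers weigh most, were lower in Nfat5(EC)-/- lungs without overlap, whereas the median differences were positive for the aerocyte and pan-endothelial lists. In each of these lists every marker called lower has a longer gene span than every marker called higher. For the pan-endothelial list the spans were 42892 to 227432 bases for lower and 1416 to 36075 for higher markers. The part of gene span in these levels was not tested. The part of these markers in the Ednrb difference was not tested. Of 8 arterial markers 1 was higher, Gja4 (1.57), and 0 lower, with a median of -0.10. Their summed level was 8.86 to 9.06 in Nfat5(EC)-/- lungs, against 8.75 to 8.85 in Nfat5fl/fl lungs. Schwann and neural crest cells were added because neural crest cells need endothelin 3, and they are not given as its source. Of their 8 markers 2 were higher, Foxd3 (1.00) and Mbp (0.84), and 6 lay below the array median, among them the defining marker Sox10. Their summed level was 6.05 to 6.51 in Nfat5(EC)-/- lungs, against 5.59 to 5.80 in Nfat5fl/fl lungs. Any relation of these markers to the Edn3 difference was not tested. Leaving out Nfat5fl/fl mouse 3 ended the calls of Emp2 (-0.97, adjusted p = 0.0590), Smtn (0.98, adjusted p = 0.0510), Foxd3 (0.85, adjusted p = 0.0661) and Mbp (0.71, adjusted p = 0.123). Emp2 lost its call without Nfat5fl/fl mouse 4 too (-0.90, adjusted p = 0.0552). So did Foxd3 without Nfat5fl/fl mouse 1 (1.03, adjusted p = 0.0510), and Mbp without Nfat5fl/fl mouse 1 (0.92, adjusted p = 0.0663), Nfat5fl/fl mouse 4 (0.88, adjusted p = 0.0666) or Nfat5(EC)-/- mouse 1 (0.64, adjusted p = 0.0591).

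Other cells of the lung were checked in the same way. Of 10 epithelial markers 1 was higher, Foxj1 (1.59), and 2 lower, with Rtkn2 (-1.09). Of 8 mast cell markers 1 was lower, Cpa3 (-1.32), and 4 lay below the array median, and of 7 measured macrophage markers 1 was higher and 2 were lower, Mrc1 (-1.47) and Adgre1 (-0.99). The Cpa3 call was lost without Nfat5fl/fl mouse 1 (-0.88, adjusted p = 0.0561), Nfat5fl/fl mouse 3 (-1.46, adjusted p = 0.0602) or Nfat5(EC)-/- mouse 1 (-1.20, adjusted p = 0.0580), and the Adgre1 call without Nfat5fl/fl mouse 3 (-1.02, adjusted p = 0.0520) or 4 (-0.85, adjusted p = 0.0530) or with the span trend removed (-0.60, adjusted p = 0.0950). Array values correlated across features at 0.916 to 0.939 within Nfat5(EC)-/- lungs and at 0.968 to 0.970 within Nfat5fl/fl lungs, and at 0.829 to 0.919 between the genotypes.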

How the data were processed

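Total RNA of 1 lung lobe per mouse was labelled with biotin and hybridised to Affymetrix arrays by the authors. They deposited log2 values from RMA (robust multi-array average), a procedure of background correction, quantile normalization and probe summary. RMA forces 1 distribution on all arrays (sorted values differed by at most 0.00183), so a change in total RNA is not visible. The RMA version, genome build and probe definition were not given in the sources used here. Values ran from 0.73 to 13.01 and are 1 per gene number, of which 24705 of 25428 had a symbol in the platform table and 25269 in that table or RefSeq GRCm38.p6. Positions, spans and promoters are those of RefSeq GRCm38.p6.

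All features were fitted with limma 3.58.1 (R 4.3.3, lmFit and eBayes) 2-sided and with neither filter nor covariate, and p-values were adjusted over all of them (Benjamini-Hochberg). The summed level of a list is log2 of the sum of its unlogged values. Gucy1a1, Cma1, Mcpt4 and Kit each stand in 2 lists. The exact permutation test was used for pairs of genes. The members, lists, tests and alternatives were chosen with earlier results of these data known. Values are given for the 6 genes, Edn2 and Nfat5, up to 3 genes with the smallest p past the threshold of each pathway list, up to 2 of each marker list, and the 3 nearest profiles of each member. Cma1, Mcpt4, Gpr37, Nmbr and Nos3, and genes named without a value to complete a count, fall outside this rule and were chosen after their values were seen. The fit was tested on simulated data. The 17 alternatives were the mouse number as a block, quantile, median and cyclic loess normalization, a filter on dim features, other variance models, array weights, protein-coding features with and without removal of the span trend (lowess), the small nucleolar RNA median as a covariate, and leaving out each array. Plots were made in Python 3.11.15 with matplotlib 3.10.9.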

Additional observations from a re-analysis of the deposited data

How the results depend on the processing

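The Ednra, Ednrb and Edn3 calls were kept under cyclic loess, array weights and removal of the span trend. They were also kept under renewed quantile normalization, median centring, the dim filter, trended and robust moderation, and protein-coding features alone. Quantile normalization and median centring could hardly change the values, which already shared 1 distribution, and the Ednra difference stayed at -1.41 in both. The last 3 settings leave every difference as it was and alter only its error and adjusted p. Deviations of same-numbered mice from their genotype means were hardly correlated across features (0.0647, -0.0103 and 0.00719), which does not settle whether the numbers mark pairs. With the mouse number as a block adjusted p was 0.00973 for Ednra, 0.0231 for Ednrb and 0.0288 for Edn3, with 6310 features passing. Pcsk5 (0.0553), Rgs2 (0.0592) and Nacc2 (0.0562) lost their calls. In that fit Edn1 was at -0.47 with an SE of 0.22, against 0.47 in the main fit, and did not pass (adjusted p = 0.174). Without variance moderation the differences -1.41, -1.09 and 1.24 of Ednra, Ednrb and Edn3 had adjusted p = 0.0672, 0.129 and 0.0996. There 0 of the 6 genes passed the limma test (3 at an unadjusted p under 0.05), 1984 of all features against 6510 did, and 6 pathway genes were higher and 11 lower. Of the 1984 calls 56.4% were higher, against 48.9% with moderation.

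With the small nucleolar RNA median as a covariate, which nearly coincides with genotype, 0 features, 0 members (1 at an unadjusted p under 0.05) and 0 pathway genes in either direction passed (11 higher and 11 lower at an unadjusted p under 0.05). Ednra was then -2.65 (adjusted p = 0.281), Ednrb -2.40 (0.361) and Edn3 -0.44. Signs turned there too for Ece2 (-0.26), Edn2 (-1.53), Prkca (0.40), Trpc6 (0.10), Rock1 (0.45), Rprml (-0.033), Gja4 (-0.31), Dcn (0.12), Foxd3 (-0.0071), Mbp (-0.52), Cpa3 (0.18), Adgre1 (0.061), Tmem189 (-0.64), Snord33 (-0.061), Nacc2 (-1.01), Kmt2d (-0.27) and Zfp511 (-0.52). Removal of the span trend turned Ece2 (-0.10), Edn2 (-0.11), Tnfaip8 (0.36), Zfp511 (-0.23) and the change of Ece1 minus Ece2 (0.036), and moved that of Ednra minus Ednrb to -0.12. It ended the calls of Pcsk5, Trpc6, Epas1, Adgre1, Pdcd6ip and Cd44, and 17 pathway genes were then lower, against 23. Array weights turned Ece2 (-0.084), Kmt2d (-0.052) and Zfp511 (-0.012), and cyclic loess turned Ece2 (-0.042). Cyclic loess also ended the call of Pdcd6ip (adjusted p = 0.0599), and trended and robust moderation that of Pcsk5 (adjusted p = 0.0655). The dim filter gave no value for Ece2. The cause was not tested in any of these cases.

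With 1 array left out, where a genotype has 2 mice, differences ranged from -0.83 to 0.047 for Edn1, -0.15 to 0.20 for Ece2, and -1.27 to -0.76 for Ednrb. Features passing ranged from 3017 to 6365, members from 2 to 3, pathway genes higher from 6 to 17 and lower from 15 to 24. Among genes outside the 6, the sign turned for Edn2 (range -0.070 to 0.37; -0.037 without Nfat5fl/fl mouse 3 and lowest without Nfat5(EC)-/- mouse 1), for H2ac6 (-0.70 to 0.035, highest without Nfat5fl/fl mouse 3), Tnfaip8 (-0.14 to 0.12, highest without Nfat5(EC)-/- mouse 3), Kmt2d (-0.13 to 0.24; -0.0099 without Nfat5(EC)-/- mouse 1 and lowest without Nfat5(EC)-/- mouse 4) and Zfp511 (-0.051 to 0.32, lowest without Nfat5(EC)-/- mouse 4). For the 60 named genes outside the 6, leaving out an array ended 43 calls and made 1. Values near the array median carry no detection call, which limits Ece2, Edn2 and Edn3.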
